A study of Mus musculus and Rattus norvegicus with 37 samples.

Results

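The genes described here encode the branched-chain α-keto acid dehydrogenase (BCKDH) complex, the kinase and the phosphatase that switch it, and the transaminase that acts just before it. They are Bckdk, Ppm1k, Bckdha, Bckdhb, Dbt, Dld and Bcat2, chosen by gene name, and all 7 were found in each of the 4 deposited liver RNA-seq tables, among 47929 uniquely named entries in mice and 28026 in rats. In mice all 7 passed the minimum of 10 normalized counts that a gene needed on average to be tested. In rats 6 passed and Bcat2 did not.

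The branched-chain amino acids leucine, isoleucine and valine are first transaminated to keto acids, mostly by Bcat2 in mitochondria of tissues other than liver, and the keto acids are then decarboxylated irreversibly by the BCKDH complex, which is highly active in liver. The complex is built on a core of the Dbt protein (the E2 transacylase), to which the E1 decarboxylase made of Bckdha and Bckdhb subunits and the E3 dihydrolipoamide dehydrogenase Dld attach. Bckdk, the BCKDH kinase, phosphorylates E1 and turns the complex off, and Ppm1k (also called PP2Cm) removes the phosphate and turns it on. These switches act on the protein, and only transcripts were measured here. Dbt is a known target of miR-29, a microRNA family, and the Bckdk protein is the target of the small-molecule inhibitor BT2.

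The study silenced miR-29 in mice to ask what the family does in liver metabolism, and examined metabolic genes in obese rats, a model of fatty liver, with and without BT2. LNA29 combines locked nucleic acid (LNA) inhibitors of miR-29a and of miR-29b/c, each given to female C57BL/6J mice as 20 mg/kg in a single subcutaneous injection, with livers of fed mice taken on day 7. The WT/Floxed comparison held 8 LNA29-treated and 5 saline-treated mice and pooled 7 WT mice (9 to 11 weeks old) with 6 floxed mice (15 to 20 weeks old, Sirt1 floxed and without the knockout), after the authors had left out 1 saline-treated floxed mouse. The L-Sirt1 KO comparison held 4 LNA29-treated and 4 saline-treated littermates of the floxed mice labelled as liver-specific Sirt1 knockouts. The driver of that knockout and the deleted segment were not given in the sources used here.

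The rats were male. Zucker fatty rats (ZFR, fa/fa, obese through a defective leptin receptor) and Zucker lean rats (ZLR) were untreated, on chow and 5.5 months old (n = 4 each). Other ZFR, 3 months old, received BT2 at 20 mg/kg daily by intraperitoneal injection for 1 week or its DMSO vehicle (n = 4 each). BT2 is a chlorinated benzothiophene carboxylic acid. As age, treatment and normalization all differ between both rat tables, values were compared only within a table.

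All values are DESeq2-normalized counts made by the authors, with each table normalized separately, and differences are given on the scale of log2(normalized count + 1) from limma fits across all genes of a table. Depth was estimated from the value of 1 read in each library. It was 42.6 to 78 M reads (M, mega) in the 21 mouse libraries and only 0.188 to 58.5 M in the 16 rat libraries, of which 6 lay under 1 M. In mice 1 read was worth 0.746 to 1.37 normalized counts, whereas in rats it was worth 0.0322 to 10.5. Hepatocyte markers (6 genes including Alb) made up 7.85% to 13.4% of all normalized counts in each library. In libraries labelled L-Sirt1 KO the median Sirt1 count was 587 with saline and 559 with LNA29, beside 576 and 614 in the WT/Floxed libraries. The gene-level count takes in reads of the whole gene and need not fall where a part is deleted, so it neither shows the knockout nor speaks against it. RT-qPCR of Sirt1, which the study also ran, was not analysed here, and these animals are called mice labelled L-Sirt1 KO.

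The 3 mouse miR-29 sequences silenced by LNA29 are shown because the match searched for below was taken from their shared seed. The capitals mark the seed, bases 2 to 8 counted from the 5′ end, in the mature RNAs of RefSeq (GRCm38.p6).
mmu-miR-29a-3p: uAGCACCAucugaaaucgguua
mmu-miR-29b-3p: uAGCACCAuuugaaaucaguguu
mmu-miR-29c-3p: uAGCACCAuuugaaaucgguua
All 3 carry the same seed, AGCACCA. Relative to miR-29a, miR-29c differs by C10U alone, and miR-29b differs by C10U, G18A, U21G and A22U and is 23 bases long where the others have 22, with a further u at its 3′ end. miR-29a is encoded on chr6:31062673-31062694 (minus strand), miR-29c on chr1:195037600-195037621 (plus strand), and miR-29b at a locus beside each of them.

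The 7-base match to this seed, TGGTGCT, was searched on the transcript strand of the annotated mouse 3′ UTRs (GENCODE vM21, GRCm38). It was present once among the 7 genes, in Dbt, at base 230 of a 3′ UTR of 1781 bases (chr3:116548430-116548436, plus strand). It lies in the 3′ UTR part of transcript Dbt-201, shown here as 29 bases at chr3:116548419-116548447 with the seed match in capitals.
Dbt: ggcttccattaTGGTGCTgagatctatgt
The base after the match is not A, so it is not the longer TGGTGCTA form, which none of the 7 genes held. Of the 21022 mouse genes with an annotated 3′ UTR, 13.8% held a 7-base match, and of the 2900 genes with a 3′ UTR within 20% of the Dbt length, 16.8% did. Ppm1k held no match in its far longer 3′ UTR of 4216 bases, a length at which 37.6% of genes have a match. Bckdk (1910 bases), Dld (900), Bckdha (451), Bcat2 (367) and Bckdhb (280) held none either. A match is a description of the letters and not evidence of binding, other kinds of site were not searched, and no rat reference was used.

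On GRCm38 the genes lie apart: Bckdk (chr7:127904082-127910221), Bckdha (chr7:25629946-25658981) and Bcat2 (chr7:45570153-45589711) share a chromosome, with Ppm1k on chr6:57506502-57535468, Bckdhb on chr9:83925145-84124240, Dbt on chr3:116513070-116549981 and Dld on chr12:31331277-31351453. Exons of Bckdha overlap B3gnt8 and exons of Bcat2 overlap 0610005C13Rik, both on the opposite strand, so reads of these pairs may not be fully separated.

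The members stood at very different levels in mouse liver. Per kilobase of the principal annotated transcript, the saline-treated WT/Floxed mice had 6704 ± 420 normalized counts of Bckdha (SD, n = 5), the E1α subunit and highest of the 7. Dld followed at 3398 ± 153 per kb and Bckdhb, the E1β partner of Bckdha, at 2850 ± 291. Dbt stood at 2012 ± 256 per kb. Bckdha lay clear of Dld in every library, and Dbt lay clear of Bckdhb, while the ranges of Dld and Bckdhb overlapped.
Bcat2 (805 ± 231 per kb) and Ppm1k (801 ± 212) could not be ranked against each other, and Bckdk was lowest at 213 ± 32.5 per kb, below both in every library. The same order of means, with Bcat2 and Ppm1k changing places in the LNA29-treated WT/Floxed group, was found in the other mouse groups. When the length of all annotated exons was used instead, Bckdha stayed highest and Bckdk lowest in WT/Floxed mice, and Bckdhb stood above Dld in the LNA29-treated group. With that length Bcat2 stood at 366 per kb, below Ppm1k, at 740 per kb, in the saline-treated WT/Floxed mice, and its mean was below that of Ppm1k in the other mouse groups too, so the order of this pair depends on the length used. The transcript forms present in these livers were not measured.

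In WT and floxed mice no member passed the criteria of the study for a change under LNA29 (p under 0.05, adjusted p under 0.2, mean above 50 normalized counts and fold above 1.2). These were met by 0 of the 7 members and by 4.35% of the 15811 genes tested (2.42% higher and 1.93% lower), and no member had an unadjusted p under 0.05 either (limma), against 13.3% of all genes. Every member also had overlapping groups, where 1.51% of genes did not overlap. As a check on the treatment, 4 of the 4 known miR-29 targets Col1a1, Col3a1, Sparc and Eln rose, with Eln going from a mean of 246 to 902 normalized counts, a log2 difference of 1.85 (SE 0.16, adjusted p = 4.66e-05).

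Dbt, the member with the seed match, lay between 5402 and 7771 normalized counts in the 8 WT and floxed mice given LNA29, with a median of 6279. In the 5 saline-treated mice it was 6164, 6610, 7661, 7242 and 5530. The saline values fall inside the range of the treated ones at both ends. This gave a log2 difference of -0.05 (SE 0.10, adjusted p = 0.899, exact permutation p = 0.666), and its 95% interval of -0.27 to 0.17 leaves out rises above 1.13-fold. Within the 3 sequencing flow cells named by the labels it was -0.28, 0.08 and -0.07.

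The switch enzymes showed the same lack of a detectable change. Bckdk had a mean of 700 ± 79.3 normalized counts under LNA29 (SD, n = 8) and 725 ± 111 under saline (n = 5), a log2 difference of -0.05 (95% interval -0.27 to 0.18). Ppm1k had 4901 ± 1279 and 4456 ± 1178, a log2 difference of 0.14 (interval -0.30 to 0.57). The wide interval of Ppm1k comes with a spread of about the same factor within each group, from 3140 to 6223 under LNA29 and from 2773 to 5683 under saline.

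Among the remaining members, Dld came nearest to a difference. It ran from 6952 over a median of 7863 to 8969 normalized counts under LNA29 and was 9086, 8455, 8078, 8849 and 8762 under saline. All 5 saline values lie above the treated median, yet the groups overlap. On the log2 scale LNA29 minus saline was -0.13 (SE 0.07, adjusted p = 0.463, exact permutation p = 0.0629). Bckdha (-0.05), Bckdhb (0.01) and Bcat2 (-0.12) had log2 differences with adjusted p-values of 0.867, 0.970 and 0.818.

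**Figure D1:**
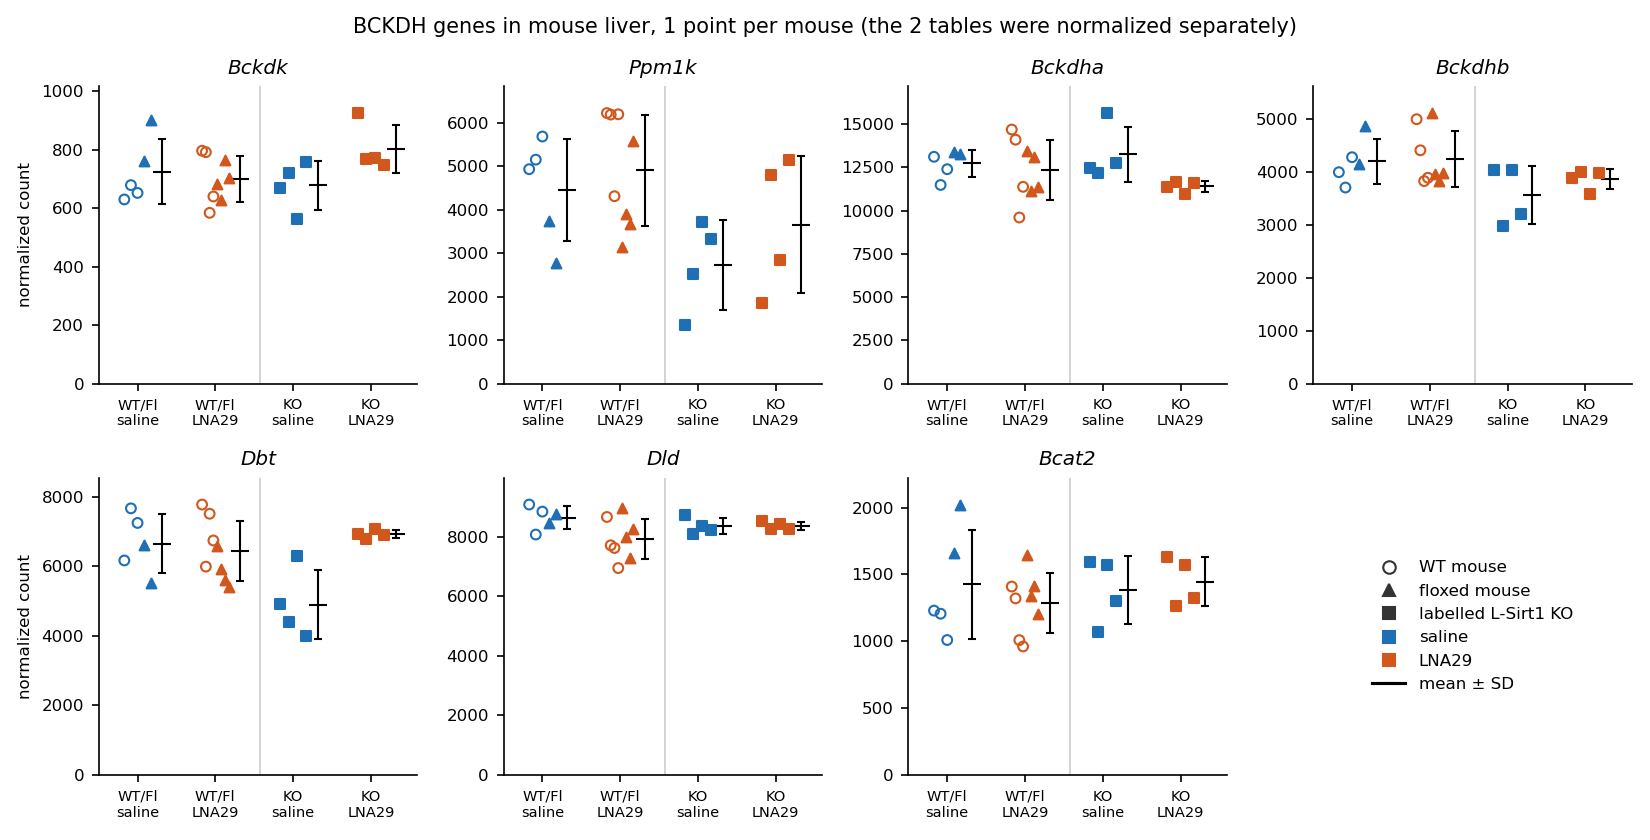
Normalized counts of the 7 genes in mouse liver, 1 point per mouse, in saline-treated (blue) and LNA29-treated (orange) mice, with open circles for WT, triangles for floxed and squares for mice labelled L-Sirt1 KO, and the mean ± SD of each group beside it. Dbt in mice labelled L-Sirt1 KO is the panel in which treated mice (6792 to 7067) sit above all saline mice (3986 to 6284), and Ppm1k is the panel with the widest spread within groups.

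Among the livers labelled L-Sirt1 KO, 1 of the 7 members passed the criteria, Dbt, which was higher with LNA29, while 1.87% of the 15885 genes tested were called and 1.19% were called higher. The groups did not overlap for 2 members, Dbt and Bckdha, against 6.95% of all genes. The 4 targets Col1a1, Col3a1, Sparc and Eln all rose here too, Col3a1 from a mean of 2074 to 6945 normalized counts (log2 difference 1.74, SE 0.20, adjusted p = 0.00783).

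Dbt, the E2 core, was at 6931, 6792, 7067 and 6909 normalized counts in the LNA29-treated mice labelled L-Sirt1 KO. It was at 4910, 4402, 6284 and 3986 in the saline-treated ones. The treated mice lie close together (SD 113, n = 4) and the saline mice far apart (SD 1000, n = 4), and saline replicate 3 comes nearest to the treated range. Per M normalized counts of a library, Dbt averaged 119 ± 1.40 in these treated mice and 82.5 ± 15.1 in these saline mice (SD). It averaged 109 ± 14.8 in LNA29-treated and 110 ± 14.6 in saline-treated WT/Floxed mice. The treated mean thus lay near both pooled WT/Floxed means and the saline mean below them, though saline replicate 3 was at 103. Those pooled means mix the floxed littermates with younger WT mice, in which Dbt was higher on average. Dbt averaged 5939 ± 532 normalized counts in the 6 floxed and 7010 ± 723 in the 7 WT mice (SD). No per M mean was made for floxed mice alone, so nearness to the littermates is not shown. Whether saline mice differ between both tables was not tested. LNA29 minus saline was 0.52 on the mean log2 scale, which is 1.44-fold (SE 0.13, 95% interval 0.23 to 0.81, adjusted p = 0.166). The exact two-sided permutation p of 0.0286 is the smallest that 4 against 4 mice can give.
Within the 3 flow cells the difference was 0.68 (1 mouse against 1), 0.48 (2 against 1) and 0.47 (1 against 2). The call met the adjusted p of 0.2 used by the study and not 0.05, and it was lost in 10 of 15 alternatives (adjusted p from 0.0336 to 0.355), while the log2 difference stayed between 0.43 and 0.65 in all of them. It was lost when any of the 4 treated mice, saline replicate 2 or saline replicate 4 was left out, with 0.43 and an adjusted p of 0.329 without saline replicate 4. Hepatocyte markers made up 10.2% to 11.8% of counts in the treated and 8.60% to 10.8% in the saline mice, with 0 of 6 called. Macrophage markers (4 genes, 1 called lower) made up 0.0131% to 0.0157% and 0.0162% to 0.0194%, and stellate cell markers (5 genes, 2 called higher), some of them miR-29 targets themselves, 0.0354% to 0.0401% and 0.0247% to 0.0316%. In bulk liver, fewer cells of a type and less RNA per cell cannot be told apart, and the part of these marker shifts in the Dbt difference was not tested.

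Whether the Dbt response differs between both mouse comparisons was tested as an interaction over all 21 mice. The response was 0.57 higher on the log2 scale in mice labelled L-Sirt1 KO (SE 0.17, 95% interval 0.22 to 0.92, unadjusted p = 0.00299 from limma). With an adjusted p of 0.316 it did not pass the threshold of 0.2 that 0.0449% of 15601 genes passed, while 9.14% of genes had an unadjusted p under 0.05. The other members had unadjusted p-values from 0.0845 for Bckdk to 0.534 for Ppm1k. It did pass without saline replicate 3 of the mice labelled L-Sirt1 KO (adjusted p = 0.111), without LNA29 replicate 1 of the WT/Floxed mice (0.169), and in a fit to all mice with sample quality weights, where the log2 difference was 0.71 (adjusted p = 0.0521). Whether a difference in the Dbt response is called thus depends on these choices, and age, background and normalization differ between the comparisons along with the label.

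Bckdha, the E1α subunit, moved the other way in mice labelled L-Sirt1 KO without passing the criteria. It was 11340, 11676, 10951 and 11624 normalized counts with LNA29 and 12456, 12185, 15643 and 12743 with saline. Every treated mouse lies below every saline mouse, by a small margin apart from saline replicate 3. The log2 values differed by -0.21 (SE 0.09, adjusted p = 0.437, exact permutation p = 0.0286), and without saline replicate 3 it was -0.13.

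The kinase and the phosphatase were not called in mice labelled L-Sirt1 KO. Bckdk was at 926, 770, 772 and 747 normalized counts with LNA29 and 669, 721, 565 and 759 with saline. Treated mice were higher on average but overlap the saline group through its highest mouse. LNA29 minus saline was 0.25 on the log2 scale (95% interval -0.02 to 0.52, adjusted p = 0.492, exact permutation p = 0.0571), and it was 0.10, 0.33 and 0.19 within the flow cells.
Ppm1k spread over more than its mean difference. It was at 1853, 4798, 2833 and 5148 normalized counts with LNA29 and 1347, 2519, 3711 and 3325 with saline, a log2 difference of 0.41 with a 95% interval of -0.45 to 1.26. Its highest value was 2.78 times its lowest within the treated and 2.76 times within the saline group. Dld, the E3 subunit shared with the pyruvate and oxoglutarate dehydrogenase complexes, was close between the groups, with SDs of 140 and 273 around means of 8368 and 8354 normalized counts with LNA29 and saline. Dld (0.00), Bckdhb (0.13) and Bcat2 (0.07) had log2 differences with adjusted p-values of 0.993, 0.727 and 0.883.

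**Figure D2:**
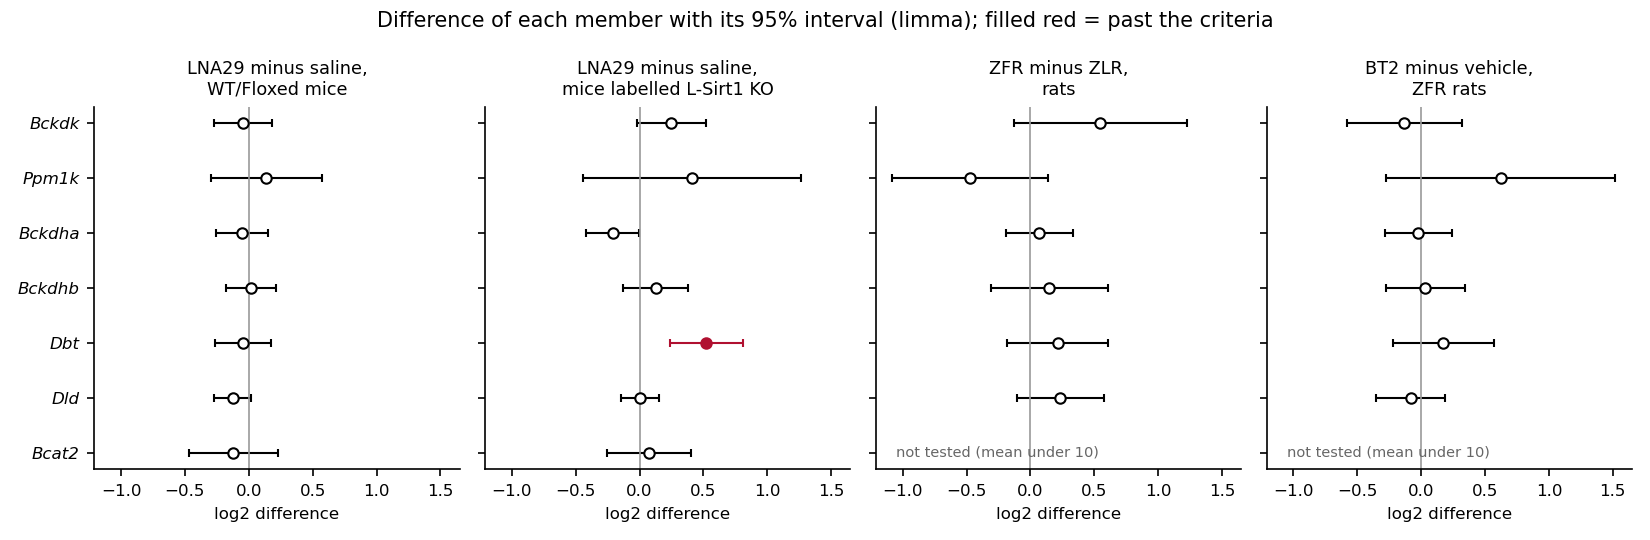
Log2 difference of each gene in the 4 comparisons (x axis) with its 95% interval from limma, in which a filled red point passed the criteria of its comparison. The point of Dbt in mice labelled L-Sirt1 KO (0.52) is filled and all others are open, and Ppm1k has the widest interval of the mouse members.

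The WT/Floxed group held mice of unlike background and age, and part of the spread of Ppm1k followed this split. This comparison was chosen after the values were seen. Ppm1k, the activating phosphatase, was 5525 ± 749 normalized counts in the 7 WT mice and 3802 ± 964 in the 6 floxed mice (SD). WT mice ran from 4309 to 6223 and floxed mice from 2773 to 5569, so the groups overlap. The highest floxed mouse lies above the lowest WT mouse and above saline-treated WT mice at 4931 and 5151. With treatment in the fit the log2 difference was 0.58 higher in WT mice (SE 0.13, 95% interval 0.30 to 0.87, adjusted p = 0.0282).
Bcat2 went the other way, at 1164 ± 173 in WT and 1548 ± 292 in floxed mice (log2 difference -0.42, SE 0.12, adjusted p = 0.0556). Both met the mouse criteria, which 14.7% of all genes also met for WT against floxed mice. All 7 members overlapped between WT and floxed mice, where 2.06% of genes did not overlap. Dbt was higher in WT mice by 0.24 on the log2 scale (adjusted p = 0.0926), under the fold of 1.2 that the criteria ask for. Bckdk, Bckdha, Bckdhb and Dld had adjusted p-values from 0.458 to 0.823. Background and age cannot be told apart in this split. The mouse work was done at the National Health Institutes and at NYU Winthrop Hospital, and the site of each mouse was not given. Adding the background to the fit left every member uncalled for LNA29, with log2 differences of 0.20 for Ppm1k and -0.02 for Dbt.

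In Zucker rats no member differed between fatty and lean animals past an adjusted p of 0.05. Of the 6 members tested 0 were called, and 0 had an unadjusted p under 0.05 (limma), where 4.25% of the 8633 genes tested were called (1.8% higher and 2.46% lower) and 16.6% had an unadjusted p under 0.05. ZLR replicates 3 and 4 and ZFR replicate 3 held under 1 M reads, and the 2 ZLR libraries rested on 0.188 and 0.189 M. Stellate cell markers (5 genes, 2 called higher) made up 0.0328% to 0.0537% of counts in ZFR and 0.0117% to 0.0185% in ZLR. Hepatocyte markers (6 genes, 2 called lower) made up 9.09% to 13.3% in ZFR and 11% to 13.4% in ZLR, 1 of 2 tested endothelial markers was called higher, and the only pancreatic acinar marker tested was called lower. The part of these markers in the member values was not tested.

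Bckdk was at 102, 104, 85.2 and 76.9 normalized counts in ZFR and at 92.6, 68.6, 74.4 and 31.6 in ZLR. The lean value of 31.6 corresponds to 3.03 estimated reads and that of 74.4 to 7.06, and the groups overlap. ZFR minus ZLR was 0.55 on the log2 scale (SE 0.30, 95% interval -0.13 to 1.22, adjusted p = 0.405, exact permutation p = 0.114), and without libraries under 1 M reads it was 0.23. Within the flow cells it was 0.37 and 0.73.
Ppm1k had the opposite sign, at 31.8, 43.4, 40.4 and 23.6 in ZFR and 47.6, 40.5, 37 and 70.6 in ZLR. The highest lean value rests on 6.76 estimated reads. The log2 difference was -0.47 (SE 0.27, adjusted p = 0.428, exact permutation p = 0.143), and it was -0.45 without libraries under 1 M reads and -0.23 and -0.71 within the flow cells. Neither gene could be said to differ at this depth.

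The subunits of the complex were closer between the groups. Dld (0.24), Dbt (0.21), Bckdhb (0.15) and Bckdha (0.07) had log2 differences with adjusted p-values from 0.471 to 0.776, beside a median of 0.07 over all genes. Dbt stood at 119 ± 12.2 normalized counts in ZFR and 104 ± 21 in ZLR (SD, n = 4 each). Without libraries under 1 M reads the values of Bckdha (-0.10) and Bckdhb (-0.06) changed sign.
Bcat2, which liver is known to express little of, was low in rats and at the edge of detection in the shallow libraries. It had 3.6, 5.88, 6.27 and 7.78 normalized counts in ZFR and 2.91, 3.07, 0 and 0 in ZLR. The groups do not overlap, as for 14.5% of the genes tested, but both zeros are in libraries where 1 read is worth 10.5 and 10.4 normalized counts, so they allow any of the levels seen in ZFR, and the values of ZFR replicates 2 to 4 rest on 3 to 5 reads. In ZFR replicate 1 and ZLR replicates 1 and 2, 1 read is worth only 0.0322, 0.0383 and 0.0432 normalized counts. The Bcat2 values of 3.6, 2.91 and 3.07 there rest on many reads. No fold is given for Bcat2.

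BT2, whose target is the Bckdk protein, was not followed by a detectable change of any member transcript. Of the 6 members tested 0 were called at an adjusted p of 0.05 and 0 had an unadjusted p under 0.05 (limma). The whole comparison called 0% of its 8405 genes, with 3.95% at an unadjusted p under 0.05, and 2.96% of genes did not overlap between the groups, among them none of the 7.

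Bckdk was at 127, 112, 80.0 and 98.7 normalized counts with BT2 and 134, 121, 120 and 83.3 with vehicle. The values interleave, and the lowest vehicle value rests on 8.07 estimated reads. BT2 minus vehicle was -0.13 on the log2 scale (95% interval -0.58 to 0.32, adjusted p = 0.929, exact permutation p = 0.543). Without the 3 libraries under 1 M reads, BT2 replicates 1 and 4 and vehicle replicate 4, it was -0.39 with an adjusted p of 0.998.
Ppm1k was at 42.1, 24.6, 29.9 and 34.7 with BT2 and 30.2, 35.6, 17.7 and 9.08 with vehicle. The lowest value, in vehicle replicate 4, comes from 0.879 estimated reads in a library of 0.193 M. The log2 difference of 0.62 (SE 0.41, adjusted p = 0.898, exact permutation p = 0.286) fell to 0.26 without that library and to 0.02 without the 3 libraries under 1 M reads, and it was -0.02 and 1.27 within the flow cells. Dbt (0.17), Bckdhb (0.03), Bckdha (-0.02) and Dld (-0.08) had adjusted p-values from 0.905 to 0.984, and their 95% intervals reached at most 0.57 in size. Bcat2 had 0, 0, 8.03 and 5.44 normalized counts with BT2 and 3.66, 3.36, 4.58 and 0 with vehicle.

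**Figure D3:**
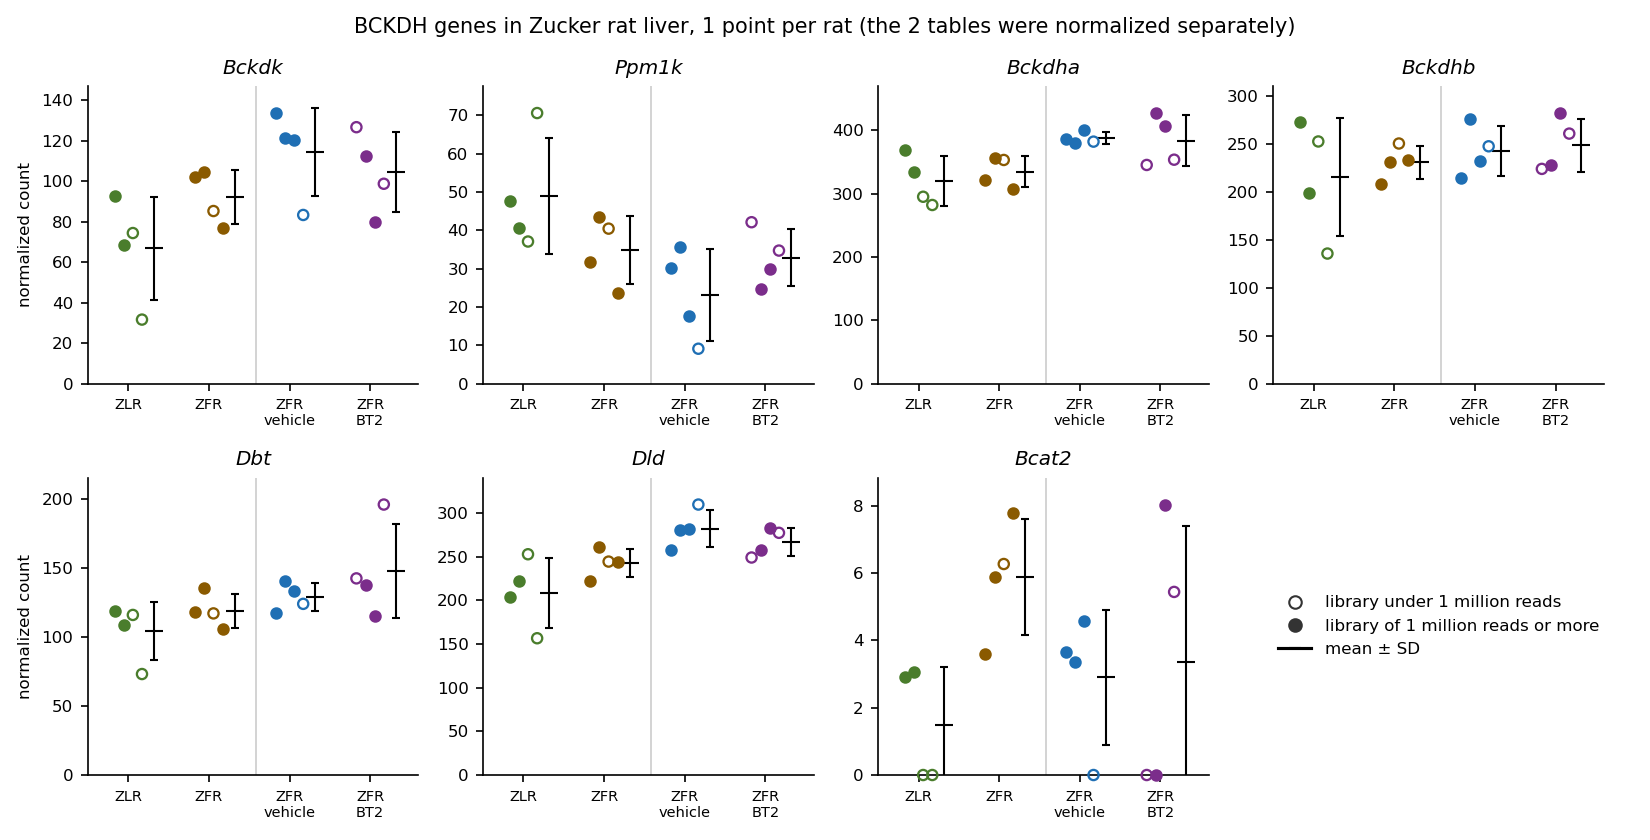
Normalized counts of the 7 genes in rat liver, 1 point per rat, for ZLR and ZFR and for ZFR given vehicle or BT2, with open points for libraries under 1 M reads and the mean ± SD of each group beside it. The extreme values of Bckdk (31.6 in ZLR) and Ppm1k (70.6 in ZLR, 9.08 in vehicle) are open points.

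The ratio of kinase to phosphatase transcript was described within each table with no test, since the members were chosen with earlier results known. It compares counts of 2 genes of unlike length in the same library. In mouse liver Ppm1k had the higher count in every library. The log2 of Bckdk over Ppm1k was -2.77 ± 0.38 with LNA29 and -2.58 ± 0.62 with saline in WT/Floxed mice. It was -2.07 ± 0.82 with LNA29 and -1.91 ± 0.71 with saline in those labelled L-Sirt1 KO (SD). Both treatment differences lie inside the spread of the groups.
The ratio was narrow in WT mice, from -3.27 to -2.88, and reached from -2.98 to -1.62 in floxed mice. In rat liver Bckdk had the higher count in all libraries but ZLR replicate 4. The log2 ratio was 1.65, 1.25, 1.06 and 1.66 in ZFR and 0.94, 0.75, 0.99 and -1.13 in ZLR, and each fatty rat stood above each lean rat, though narrowly at the closest pair. That pair, ZFR replicate 3 and ZLR replicate 3, holds libraries under 1 M reads, and the mean difference of 1.02 was 0.68 without such libraries. Among single genes tested, 14.5% also did not overlap between ZFR and ZLR, and no such share was computed for ratios. With BT2 the ratio was 1.65 ± 0.34 and with vehicle 2.40 ± 0.59, with overlapping values.

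**Figure D4:**
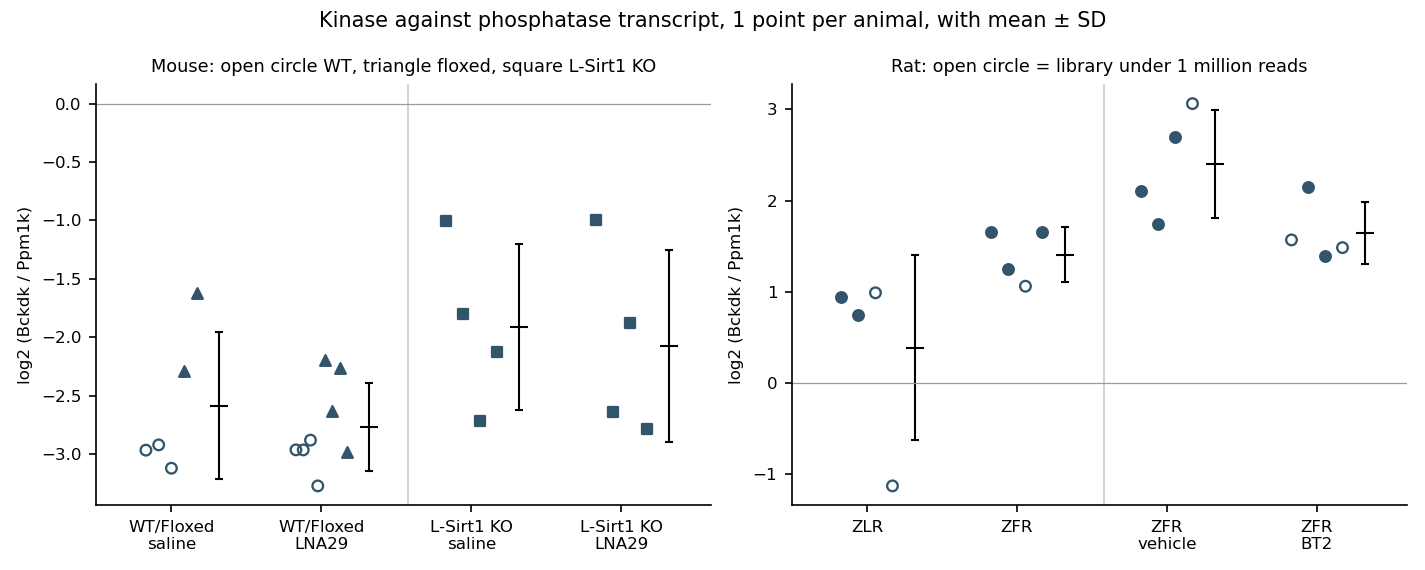
Log2 of the Bckdk count over the Ppm1k count in each animal, for mice (left; open circles WT, triangles floxed, squares labelled L-Sirt1 KO) and rats (right; open circles for libraries under 1 M reads), with mean ± SD. WT mice cluster between -3.27 and -2.88, and the ZFR points (1.06 to 1.66) lie above the ZLR points (-1.13 to 0.99). Among single genes tested, 14.5% also did not overlap between ZFR and ZLR.

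Other genes of the pathway and of sister complexes were counted beside the members. Over all genes tested, 4.35% were called in WT/Floxed mice (1.93% lower) and 1.87% in mice labelled L-Sirt1 KO (0.68% lower). A single call in lists of this size is not read as a result about the list. In WT/Floxed mice 1 of 18 genes of branched-chain amino acid oxidation after BCKDH was called, Hibadh of valine breakdown (log2 difference -0.27, adjusted p = 0.144), and the median of the list was -0.11 against 0.00 over all genes. Of 6 tested genes of transport and cytosolic transamination 1 was called, Slc25a44, the mitochondrial carrier that imports these amino acids, which fell by 0.29. Of 7 genes of sister dehydrogenase complexes 1 was called, Dhtkd1, which fell by 0.52. The pyruvate dehydrogenase kinases and phosphatases (7 genes), lipoylation (3) and regulators such as Klf15 and Ppargc1a (5) had 0 called. In mice labelled L-Sirt1 KO the only call in these lists was Pdha1, a pyruvate dehydrogenase subunit, which fell by 0.30, and 0 of 18 oxidation genes were called.

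In ZFR against ZLR the oxidation list had 2 of 18 genes called, both lower, and a median of -0.18 against 0.07 over all genes. Of all genes tested there, 4.25% were called, 1.8% higher and 2.46% lower. Acadsb, the dehydrogenase of the isoleucine branch, had a mean of 94.3 normalized counts in ZFR and 217 in ZLR, a log2 difference of -1.19 (SE 0.17, adjusted p = 0.00416), and Ivd of the leucine branch differed by -0.53 (adjusted p = 0.0323). Dlat, the E2 core of pyruvate dehydrogenase and so the counterpart of Dbt, was higher in ZFR by 1.26 (SE 0.16, adjusted p = 0.00199), where Dbt itself was not called, and the kinase Pdk1 was higher by 0.91 (adjusted p = 0.00422), where Bckdk was not called. Whether these genes differ from their BCKDH counterparts was not tested. The lean means were only 51.5 normalized counts for Dlat and 77.0 for Pdk1. In ZLR replicates 3 and 4, 1 read was worth 10.5 and 10.4 of these counts. Values without libraries under 1 M reads are not given for Dlat, Pdk1, Acadsb or Ivd. Of the 4 miR-29 targets used as a check in mice, 3 were called higher in ZFR (list median 1.24), led by Col1a1 with 53.6 against 3.45 normalized counts. The lean Col1a1 mean lies below the worth of 1 read in ZLR replicates 3 and 4 (10.5 and 10.4 normalized counts). Col1a1 and Col3a1 are also among the stellate cell markers counted above. The study reported elevated miR-29 in ZFR livers by RT-qPCR, and what raised these genes was not tested. With BT2, 0 genes of any of these lists were called (limma).

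Genes whose values ran most like those of Bckdk, Ppm1k and Dbt were ranked over the 21 mouse libraries, centred in each table, among 12758 genes with a mean of at least 50. They share library and depth with the member, so the correlations are descriptions. Dbt ran most like Cyp2b10 (Pearson r = 0.89), Cps1 of the urea cycle (0.89) and Aco1 (0.87). Ppm1k ran most like Stard5 (0.90), Klhl24 (0.89) and Ube2h (0.89), and Bckdk most like Acot6 (0.81), AW146154 (0.78) and Hist1h1c (0.78). Over the 16 rat libraries the leading genes were Edem2 for Bckdk (0.89), Nbn for Ppm1k (0.85) and Morf4l1 for Dbt (0.85).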

How the data were processed

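RNA-seq of 37 livers was analysed, and 0 columns of the 4 tables were left unmatched. Per the labels and methods, the authors aligned reads with STAR, estimated gene counts with Salmon and divided them by DESeq2 factors (builds mm10 and rn6), so the deposited values are a signal of normalized counts, scaled within each table. Whole reads could not be recovered (72.4% to 91.1% of low values were whole multiples of 1 read within 0.05 steps), so no count model was run. The most frequent value above 0 was taken as 1 read, and depths cover counting error only. Entries without a name (381 in mice, 201 in rats) or with a repeated name (130 and 4523) were left out and held at most 0.0461% and 2.17% of counts. Fits used limma 3.58.1 in R 4.3.3 (trend) with Benjamini-Hochberg adjustment over genes with a mean of at least 10, and were tested on simulated data. Calls followed the study in mice and an adjusted p under 0.05 in rats. Exact two-sided permutation tests were made over libraries. Each library is 1 animal by its label, so p-values measure the spread between these animals. Named are all members and, of each further list, the called gene with the largest difference. Ivd is named too, as it completes a count of 2. The members, lists and alternatives were chosen with earlier results of these data known. 3′ UTRs came from GENCODE vM21 with Python 3.11.15, and figures were drawn with matplotlib 3.10.9.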

Additional observations from a re-analysis of the deposited data

Results flagged for a closer look

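Among 56 groups of 4 to 8 values of a member, 2 held a value that stood apart from the rest by Dixon's criterion, which chance alone gives in about 1 of 20 groups. Bckdha was at 15643 normalized counts in saline-treated replicate 3 of the mice labelled L-Sirt1 KO, where the nearest value was 12743. Bckdk was at 926 in LNA29-treated replicate 1 of the same table, where the nearest value was 772. Without these mice the log2 differences of Bckdha and Bckdk under LNA29 were -0.13 and 0.18.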

How the results depend on the processing

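For the 7 members, 26 differences were recomputed under 464 alternatives, of which 419 kept direction and call, 10 lost the call of Dbt in mice labelled L-Sirt1 KO and 35 changed sign, in 12 differences that were never called. Restricting the mice to WT or floxed animals and leaving out rats under 1 M reads were added after seeing the data. The cause of these changes was not tested. Of the 16 rat libraries, 6 hold under 1 M reads, and without those under 5 M reads only 2 ZLR and 1 ZFR stayed while BT2 against vehicle could not be fitted.

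The 688 genes called in WT/Floxed mice became 396 without a minimum count, 1308 with sample quality weights, 56 with the replicate block, 206 at an adjusted p of 0.05 and 88 in WT mice alone. The 297 in mice labelled L-Sirt1 KO became 160 without a minimum, 804 with quality weights, 103 with flow cell in the fit, 145 with the replicate block and 37 at an adjusted p of 0.05. The 367 in ZFR against ZLR became 241 without a minimum, 1169 with quality weights, 221 with the replicate block, 73 without libraries under 5 M reads and 895 with weights from depth. The 0 for BT2 became 1 with a pseudocount of 10, 1 with quality weights and 2 without libraries under 1 M reads. The 7 of the interaction became 1220 with quality weights, 19 with flow cell in the fit and 69 with floxed mice alone in the WT/Floxed arm. Leaving out 1 library at a time gave 381 to 1006, 77 to 426, 225 to 379, 0 to 2 and 0 to 233 in the same order, where the interaction had 0 without WT/Floxed saline replicate 3, L-Sirt1 KO LNA29 replicate 2 or L-Sirt1 KO LNA29 replicate 4, and 233 without L-Sirt1 KO saline replicate 3.

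Dbt in mice labelled L-Sirt1 KO stayed at 0.52 and lost its call without a minimum (adjusted p = 0.213), with the replicate block (0.215) and at an adjusted p of 0.05 (0.166), and was 0.53 with flow cell in the fit (0.316, limma), so that 0 members were called under each of these 4. Leaving out single mice gave 0.43 to 0.65 and 0 to 1 members called. Its interaction was 0.71 with quality weights (adjusted p = 0.0521, called) and 0.48 to 0.70 without single mice. Its WT minus floxed difference became called in 4 of the fits that leave out a mouse.

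Signs turned for small values. In WT/Floxed mice Dbt was 0.024 with the replicate block, Bckdk 0.024 with quality weights and 0.093 in WT mice alone, Bcat2 0.019 in WT mice alone and Bckdhb -0.10 in floxed mice alone. Leaving out single mice gave -0.23 to 0.016 for Bcat2, -0.030 to 0.068 for Bckdhb, -0.095 to 0.034 for Bckdk, -0.11 to 0.0069 for Dbt and -0.022 to 0.24 for Ppm1k. In mice labelled L-Sirt1 KO, Dld was -0.0024 with TMM scaling, -0.0074 with flow cell in the fit and -0.012 to 0.024 without single mice, and Bcat2 was -0.045 to 0.15. In ZFR against ZLR, Bckdha was -0.058 with quality weights, -0.12 without libraries under 5 M reads, -0.098 without those under 1 M reads and -0.0081 with weights from depth. Bckdhb was -0.16 without libraries under 5 M reads, -0.057 without those under 1 M reads and -0.056 to 0.28 without single rats. With BT2, Bckdha was 0.018 with quality weights, 0.10 without libraries under 1 M reads and -0.075 to 0.028 without single rats. Bckdhb was -0.024 with quality weights and -0.029 to 0.098 without single rats, and Dbt was -0.047 without libraries under 1 M reads.

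No source says that a replicate number marks a shared litter or day. Same-numbered rats share a flow cell, but so do replicates 1 and 2 and replicates 3 and 4 of every rat group, and some same-numbered mice share one. Their deviations from the group means correlated from -0.35 to 0.28, and the pairs in which both libraries correlated best with their own number were 0 of 5, 1 of 4, 2 of 4 and 3 of 4 in the WT/Floxed, L-Sirt1 KO, ZFR against ZLR and BT2 comparisons, and not every pair correlated over 0.1 in any comparison, so the numbers were not taken to pair the animals.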
